A study of Mus musculus with 2 samples.

Results

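The microRNA hairpins described here are the 6 of the Mir17-92 cluster and the 3 of the Mir106b-25 cluster, 9 of the 2202 microRNA genes counted in mouse adrenal gland. They were taken by name, by matching the identifiers of the deposited tables to the GENCODE M21 annotation, and all 9 were found. The mice were males of the strain B6CASTF1/J, a cross of C57BL/6J with CAST/EiJ, and were 25 days old. There was 1 group of 2 biological replicates with no treatment, no engineered allele and no second group. By the labels the animals carry different numbers but a shared donor entry, so the spread between replicates may not be one between animals. Levels are sense-strand counts per 1000000 sense counts of all microRNA genes (CPM), from 4541373 such counts in replicate 2 and 3588361 in replicate 1. By the limit of 3 counts, a hairpin with 0 counts could reach 0.661 CPM in replicate 2 and 0.836 CPM in replicate 1. Intervals are exact at 95% and cover counting error alone, with every read taken as independent. The reads carry no molecular identifiers, so amplified copies cannot be told from separate molecules and the intervals may be too narrow.

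Mir17-92 is a polycistron: a single primary transcript, Mir17hg, folds into several hairpins that Drosha and Dicer cut into mature microRNAs. Mir106b-25 is its paralog inside Mcm7, a gene for a subunit of the replicative DNA helicase. Both clusters are transcribed in proliferating cells, downstream of MYC and E2F factors, and are known as drivers of cell growth in lymphoma and other tumours. A mature microRNA finds its targets mainly through its seed, bases 2 to 8. Members with the miR-17 seed repress the cell cycle inhibitor Cdkn1a and the death factor Bcl2l11.

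The leading mature arm of each hairpin is shown because the seed sorts the 9 hairpins into 4 families that cut across the clusters. RefSeq sequences (GRCm38.p6) were matched for all 9, and run 5′ to 3′ with the seed in capitals. The counts are per hairpin and do not separate its arms, so the leading arm is taken from general knowledge of these microRNAs. The miR-17 seed comes first, then miR-18, miR-19 and miR-92.
Mir17: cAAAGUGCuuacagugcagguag
Mir20a: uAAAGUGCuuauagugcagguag
Mir93: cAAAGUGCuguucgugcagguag
Mir106b: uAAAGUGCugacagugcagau
Mir18: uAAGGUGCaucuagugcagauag
Mir19a: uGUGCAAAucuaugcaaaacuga
Mir19b-1: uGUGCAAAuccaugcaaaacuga
Mir92-1: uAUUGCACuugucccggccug
Mir25: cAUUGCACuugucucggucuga

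Outside the seed, members of a family differed to varying degrees. Mir17 and Mir93 differ at 4 of 23 bases, and Mir93 and Mir106b at 5 of 21. Counted from 1 at the 5′ end, Mir17 and Mir20a differ by C1U and C12U, with the Mir17 base first. Mir19a and Mir19b-1 differ at a single base, U11C. Mir92-1 and Mir25 differ by U1C, C14U and C18U over the 21 bases they share. The whole leading arm of Mir19b-1 is also that of Mir19b-2, and that of Mir92-1 is also that of Mir92-2, both hairpins of another paralogous cluster, on the X chromosome. Reads that mapped to several places, 27.0% of input reads in replicate 2 and 31.6% in replicate 1, were not counted per gene. The counts of Mir19b-1 and Mir92-1 therefore rest on reads that separate the copies, and understate them. Each of the other 7 members shared fewer than 20 bases in a row with every other annotated hairpin.

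The Mir17-92 hairpins lie on the plus strand of chromosome 14 (mm10, chr14:115043671-115044506), within 836 bases and inside an exon of the single annotated transcript of Mir17hg, a long noncoding RNA gene. Their order along the transcript is Mir17, Mir18, Mir19a, Mir20a, Mir19b-1 and Mir92-1, with gaps of 35 to 96 bases. The Mir106b-25 hairpins lie on the minus strand of chromosome 5 (chr5:138165321-138165818), in the order Mir106b, Mir93 and Mir25. Mir106b was intronic in both Mcm7 transcripts that span it. Mir93 and Mir25 were intronic in 2 of the 3 transcripts that span them and in an exon of the other. Opposite to the members no hairpin is annotated, and all 9 had 0 antisense counts in both libraries.

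Both clusters were counted at moderate levels, and they held nearly equal shares of the adrenal microRNA counts. Reads that Mir92-1 and Mir19b-1 share with copies on the X chromosome were not counted. The share of Mir17-92 may therefore be understated. The Mir17-92 hairpins held 0.563% ± 0.0269 of the sense counts (SD, n = 2), and the Mir106b-25 hairpins 0.506% ± 0.0540. Together the 9 hairpins made up 1.13% of the counts in replicate 2 (1.12% to 1.14%) and 1.01% in replicate 1 (1.00% to 1.02%). Replicate 2 also held 20.2% of its counts in 9 hairpins known from hepatocytes, against 0.204% in replicate 1, and in replicate 2 nearly all of that was Mir122. With Mir122 out of the totals, the Mir17-92 share was 0.725% in replicate 2 and 0.544% in replicate 1. In bulk tissue, fewer cells of a type and less RNA per cell cannot be told apart.

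**Figure D1:**
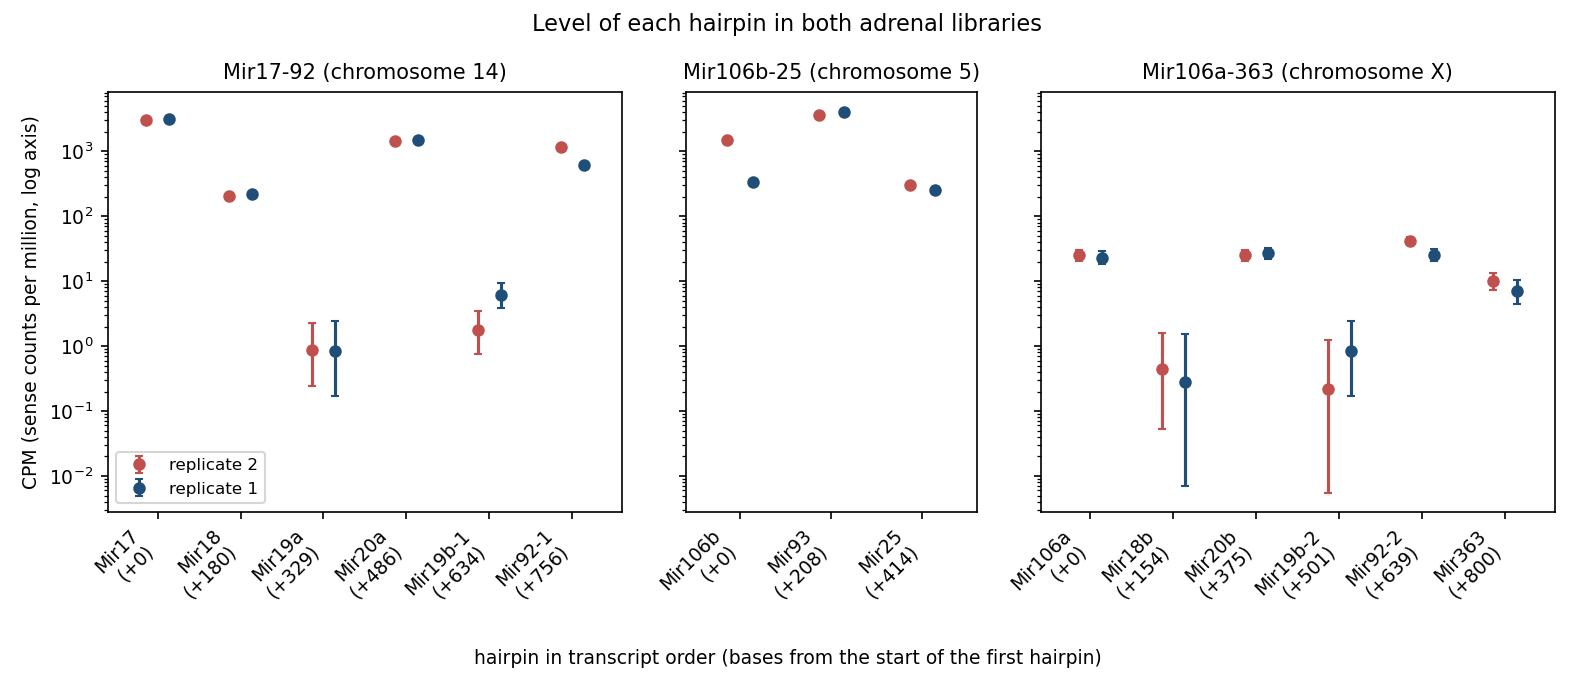
CPM (log axis) of each hairpin of the Mir17-92, Mir106b-25 and Mir106a-363 clusters, in order along its strand (labelled transcript order). Under each name is the distance in bases from the start of the first hairpin of its cluster. Points are the libraries, replicate 2 on the left and replicate 1 on the right, and bars are exact 95% Poisson intervals. Mir17 lies at 3015 and 3095 CPM while Mir19a, between Mir18 and Mir20a, lies below 1 CPM in both libraries.

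Members with the miR-17 seed supplied most of the counts, which leave out reads that Mir92-1 and Mir19b-1 share with copies on the X chromosome. Of all counts of the 9 hairpins, the 4 with that seed held 85.0% in replicate 2 and 89.1% in replicate 1. Mir93, the middle hairpin of the Mcm7 cluster (ENSMUSG00000065527.1), had the highest counted level of any member. It had 3653 CPM in replicate 2, from 16590 counts, and 4097 CPM in replicate 1, from 14701 counts. Its mean of 3875 CPM ± 314 (SD, n = 2) ranked 40 among the 352 hairpins detected, that is, with at least 10 counts in both libraries. Mir17, the first hairpin of the polycistron (ENSMUSG00000065508.1), followed with 13691 counts in replicate 2 and 11105 in replicate 1. Its 3015 and 3095 CPM gave a mean of 3055 CPM ± 56.6, at rank 42. Mir93 lay above Mir17 in both libraries, without overlap.

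Mir20a, which shares the miR-17 seed and lies 486 bases downstream of the start of Mir17, was clearly below it. It had 1418 CPM in replicate 2, from 6438 counts, and 1491 CPM in replicate 1, from 5349 counts, at rank 60. Mir17 had 2.13 times the counts of Mir20a in replicate 2 (2.06 to 2.19) and 2.08 times in replicate 1 (2.01 to 2.15). These intervals overlap, and the change in the proportion was not itself tested. Mir106b, the first hairpin in Mcm7 and the last member with this seed, was uneven. It had 1486 CPM in replicate 2, from 6750 counts, and 333 CPM in replicate 1, from 1195 counts. In replicate 2 it stood level with Mir20a, while in replicate 1 it lay below Mir92-1.

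Mir18, between Mir17 and Mir19a, is the only member with the miR-18 seed. It had 206 CPM in replicate 2, from 934 counts, and 222 CPM in replicate 1, from 795 counts. Its proportion to Mir17 likewise gave overlapping intervals: Mir17 had 14.7 times its counts in replicate 2 (13.7 to 15.7) and 13.97 times in replicate 1 (13.0 to 15.03).

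The miR-19 hairpins were close to the limit of counting in the same transcript. Mir19a (ENSMUSG00000065416.1) had 0.881 CPM in replicate 2, from 4 counts, and 0.836 CPM in replicate 1, from 3 counts. Its direct neighbour Mir20a, 75 bases downstream, had 1609.5 times as many counts in replicate 2 (628 to 5909), and the interval in replicate 1 was 609.8 to 8649. No other annotated hairpin holds the whole leading arm of Mir19a, and its longest run shared with any of them was 13 bases. That search covered annotated hairpins alone. Whether reads of Mir19a were lost to matches elsewhere in the genome was not tested. Mir19b-1 had 1.76 CPM in replicate 2, from 8 counts, and 6.13 CPM in replicate 1, from 22 counts. Since its leading arm is also that of Mir19b-2, that low value does not show a low level. The hairpins of Mir19a, low in counts, and of its neighbour Mir20a, high in counts, are printed with the arms listed by RefSeq in capitals. For Mir19a the table lists a 3p arm alone, and for Mir20a both arms.
Mir19a: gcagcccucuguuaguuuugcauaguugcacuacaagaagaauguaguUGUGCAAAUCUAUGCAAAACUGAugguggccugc
Mir20a: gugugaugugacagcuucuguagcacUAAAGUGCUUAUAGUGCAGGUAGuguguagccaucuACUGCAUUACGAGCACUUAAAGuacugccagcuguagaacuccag

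The miR-92 seed is represented by the last hairpin of each cluster. Mir92-1 had 1174 CPM in replicate 2, from 5333 counts, and 621 CPM in replicate 1, from 2229 counts, although reads common to it and Mir92-2 were not counted. Mir25 had 304 CPM in replicate 2, from 1382 counts, and 251 CPM in replicate 1, from 900 counts. Mir92-1 was the higher of these in both libraries, and Mir25 lay above Mir18 in both. Over all 9 members, adjacent places in the order of mean levels overlapped for 2 pairs, Mir20a with Mir106b and Mir106b with Mir92-1. Leading arms are 21 to 23 bases long, so levels were compared without scaling by length. How efficiently each sequence was captured in the libraries was not measured. Ratios between hairpins are therefore ratios of counts, and their intervals do not cover such differences. The GC content of those arms ran from 34.8% in Mir19a to 57.1% in Mir92-1, with 47.8% in Mir17 and 52.2% in Mir93.

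The make-up of each cluster does not depend on the library total, and it differed between the replicates mainly at Mir106b and Mir92-1. Within Mir106b-25, Mir106b held 27.3% of the counts in replicate 2 (26.7% to 27.9%) and 7.11% in replicate 1 (6.73% to 7.51%). Mir93 accordingly held 67.1% in replicate 2 and 87.5% in replicate 1. Mir25 kept nearly the same part, 5.59% in replicate 2 (5.31% to 5.88%) and 5.36% in replicate 1 (5.02% to 5.71%). Within Mir17-92, Mir92-1 held 20.2% in replicate 2 (19.7% to 20.7%) and 11.4% in replicate 1 (11.0% to 11.9%). That part rests only on reads that separate Mir92-1 from Mir92-2. Mir17 held 51.8% in replicate 2 and 56.9% in replicate 1, and Mir20a 24.4% in replicate 2 and 27.4% in replicate 1.

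**Figure D2:**
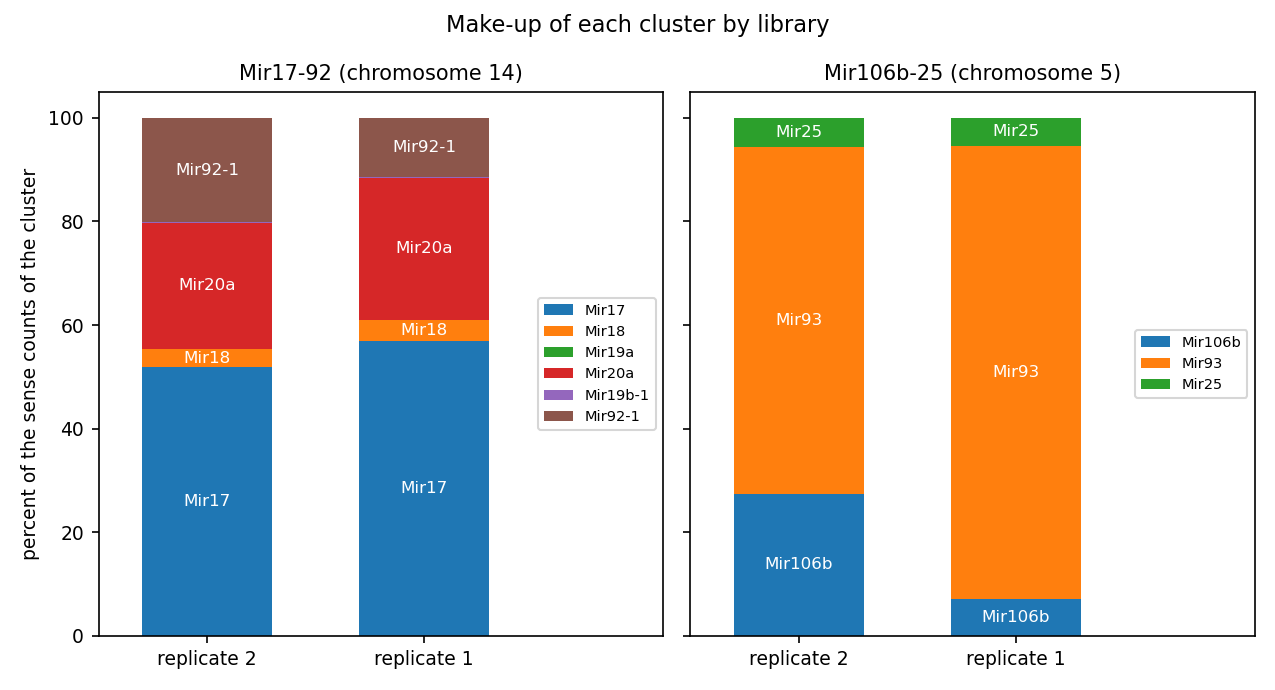
Stacked bars give the percent of each cluster's sense counts held by each hairpin, with replicate 2 left of replicate 1. Mir106b takes 27.3% of its cluster in replicate 2 and 7.11% in replicate 1, while Mir17 takes over 50% of its cluster in both; Mir19a and Mir19b-1 are too small to see.

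Counts of neighbours showed the same. Mir93 had 2.46 times the counts of Mir106b in replicate 2 (2.39 to 2.53) and 12.3 times in replicate 1 (11.6 to 13.1). This shift, 2.32 on the log2 scale as the absolute difference of the library ratios of CPM + 1, ranked 4 among 113 pairs of adjacent detected hairpins on the same strand less than 10 kb apart. The median pair shifted by 0.57. The step between Mir20a and Mir92-1 shifted by 0.99 and ranked 34. In contrast, the steps between Mir17 and Mir18 and between Mir18 and Mir20a shifted by 0.07 and 0.03, ranks 106 and 111, among the steadiest pairs measured. The pairs were not matched for counts, and counting error is larger where counts are few. The step between Mir93 and Mir25 shifted by 0.44, at rank 67.

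Library ratios of the single members were set beside those of all detected hairpins. An exact two-sided binomial test of the reads against the library totals, adjusted by Benjamini-Hochberg over the 352 detected hairpins, called 67% of them at 0.05, a test of these libraries and not of conditions. Of the 7 members detected, 5 were called, a share near that background. Higher in replicate 2 were 3 of 7, where 30.4% of all detected hairpins were. They were Mir106b, 4.46-fold higher (4.20 to 4.75), Mir92-1, 1.89-fold higher (1.80 to 1.99, adjusted exact p = 2.55e-150), and Mir25, 1.21-fold higher (1.11 to 1.32, adjusted exact p = 1.31e-05). For Mir92-1 the comparison covers only reads that separate it from Mir92-2. Lower in replicate 2 were 2 of 7, where 36.6% of all were. They were Mir93, at 0.892 of its level in replicate 1 (0.872 to 0.912), and Mir20a, at 0.951 (0.917 to 0.986). Mir17 stood at 0.974 (0.950 to 0.999) with an adjusted exact p of 0.0595, and Mir18 at 0.928 (0.844 to 1.02) with 0.175.

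Size of difference separated the members more than the calls did. With the total of all sense counts, Mir106b alone of the 7 was over 2-fold apart, as were 16.8% of all detected hairpins. Mir92-1 also passed 2-fold with Mir122 out of the total, at 2.35-fold, and narrowly with all input reads as the total, at 1.01 on the log2 scale. For Mir106b the log2 ratio ranked 8 of 352. Mir17, at -0.04, lay at the median log2 ratio of all 352. The median of the 7 members was also -0.04, and the median distance of detected hairpins from that value was 0.43. Directions of the small differences depended on the total. With Mir122 out of it, the median of all detected hairpins was 0.26 and that of the members 0.28. All 7 members were then called, against 71.2% of the hairpins tested, and all as higher in replicate 2, against 49.9%, so Mir17, Mir18, Mir20a and Mir93 turned direction while Mir106b, Mir92-1 and Mir25 did not.

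**Figure D3:**
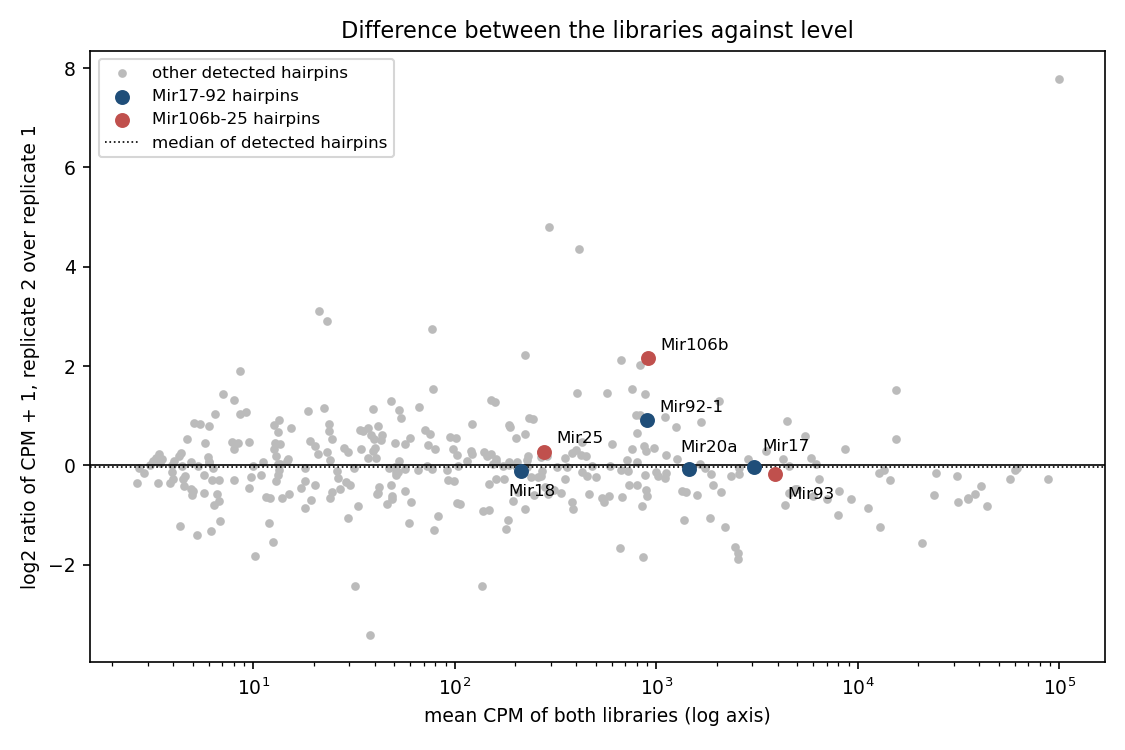
Log2 ratio of CPM + 1, replicate 2 over replicate 1, against mean CPM (log axis) for the detected hairpins, with the 7 detected members in colour and the median of all as a dotted line. Mir106b, at 2.15, stands off from Mir93, at -0.17, while Mir17, Mir18 and Mir20a lie on the median line within 0.07.

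Markers of other tissues differed between the same libraries. Over the whole hepatocyte list, 9 of 9 hairpins were higher in replicate 2, summing to 201553 CPM against 2040 CPM in replicate 1, and none was at 0 in both. Leukocyte hairpins, 0 of 6 higher in replicate 2, summed to 2832 CPM in replicate 2 and 5011 CPM in replicate 1. Striated muscle hairpins summed to 1.32 CPM in replicate 2 and 1006 CPM in replicate 1, with Mir133a-2 and Mir133b at 0 in both, and none of 9 was higher in replicate 2. Erythroid hairpins, none of 3 higher, summed to 1297 CPM in replicate 2 and 1542 CPM in replicate 1. Endothelial hairpins, 4 of 5 higher, were even, at 68381 CPM in replicate 2 and 68037 CPM in replicate 1. Of the chromaffin-associated hairpins 8 of 8 were detected, with 3 of 8 higher in replicate 2. They summed to 34383 CPM in replicate 2 and 40675 CPM in replicate 1. Such detection was also met by 6 of 6 leukocyte and 6 of 9 hepatocyte hairpins, so it does not test the adrenal label. All 7 hairpins of an adrenal cortex list were detected too, at 23954 CPM in replicate 2 and 35943 CPM in replicate 1. The 3 of 7 that were higher in replicate 2 were Mir125a, Mir214 and Mir212. The abundant Mir21a and Mir335 were lower there, as were Mir320 and Mir132. The part of any of these lists in the differences of Mir106b and Mir92-1 was not tested.

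The hairpins whose levels in both libraries lay closest to a member were found by the distance on the log2(CPM + 1) scale over the 2 libraries. For Mir106b the nearest was Mir101b, with 1334 CPM in replicate 2 and 327 CPM in replicate 1, at a distance of 0.16. Mir101b is on the hepatocyte list. Mir214, on the adrenal cortex list, also differed between the libraries, at 1088 CPM in replicate 2 and 248 CPM in replicate 1. Whether either shares a source with Mir106b was not tested. For Mir92-1 it was Mir425, with 1110.0 CPM in replicate 2 and 547 CPM in replicate 1, at a distance of 0.20. For Mir17 it was Mir28a, at 2977 CPM in replicate 2 and 2714 CPM in replicate 1. Mir93 was nearest to Mirlet7f-2, Mir20a to Mir324, Mir18 to Mir1843a and Mir25 to Mir296, at distances of 0.06 to 0.29. For the undetected members the nearest detected hairpins were Mir452 for Mir19b-1, at 0.22, and Mir1934 for Mir19a, at 1.38.

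The paralogous cluster on the X chromosome, Mir106a-363, was counted at a much lower level. In order along its strand lie Mir106a, Mir18b, Mir20b, Mir19b-2, Mir92-2 and Mir363, with no hairpin in the place of Mir19a. None of the 4 annotated transcripts of Kis2, the gene taken as its host, spans any of them. These 6 hairpins (chrX:52741693-52742567, minus strand) had 468 counts in replicate 2 and 300 in replicate 1, where the 6 of Mir17-92 had 26408 and 19503. Mir106a, which differs from Mir17 by U10A alone, had 114 counts in replicate 2 and 83 in replicate 1. Mir17 thus had 120.1 times its counts in replicate 2 (99.9 to 146) and 134 times in replicate 1 (108 to 168). Mir20b, separated from Mir20a by U1C and U10C, had 114 and 97 counts in the same order. Mir20a had 56.5 times as many in replicate 2 (46.9 to 68.6) and 55.1 times in replicate 1 (45.1 to 68.1).
Mir106a: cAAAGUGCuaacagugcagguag
Mir20b: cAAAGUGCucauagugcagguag

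Proportions within the X cluster were not those of the chromosome 14 cluster. Mir106a and Mir20b held 24.4% each of its counts in replicate 2, and 27.7% and 32.3% in replicate 1. Mir92-2 held 41.0% in replicate 2 and 30.3% in replicate 1. Mir18b had 2 counts in replicate 2 and 1 in replicate 1, where Mir18 had 934 and 795. Mir19b-2 had 1 and 3 counts, under the same limit of shared reads as Mir19b-1. Mir92-2 had 192 counts in replicate 2 and 91 in replicate 1. Among uniquely mapped reads, Mir92-1 therefore had 27.8 times its counts in replicate 2 (24.0 to 32.2) and 24.5 times in replicate 1 (19.9 to 30.5), and these intervals overlap.

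Grouped by seed, the hairpins of 3 loci and beyond can be read together. Detected hairpins with the miR-92 seed were Mir92-1, Mir25, Mir92-2, Mir363, Mir32 and Mir92b. Their mean levels ran from 898 CPM for Mir92-1 and 278 CPM for Mir25 to 73.0 CPM for Mir32, 33.8 for Mir92-2, 13.3 for Mir92b and 8.44 for Mir363. Reads common to Mir92-1 and Mir92-2 are in neither level. Mir92-2 was 1.67-fold higher in replicate 2 (1.29 to 2.16, adjusted exact p = 9.34e-05) and Mir92b 1.65-fold (1.09 to 2.52, adjusted exact p = 0.0205). Mir363 stood at 1.42-fold (0.854 to 2.42) and Mir32 at 0.991 (0.841 to 1.17), neither called. With the miR-17 seed, Mir106b was the exception among 6 detected hairpins, since the other 5 had ratios of 0.892 to 1.09. These values depend on the total. With Mir122 out of it, the 5 ran from 1.11 for Mir93 to 1.35 for Mir106a, and Mir106b stood at 5.56. The remaining hairpins with these seeds, Mir367 and Mir6383, had 0 counts in both libraries.

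**Figure D4:**
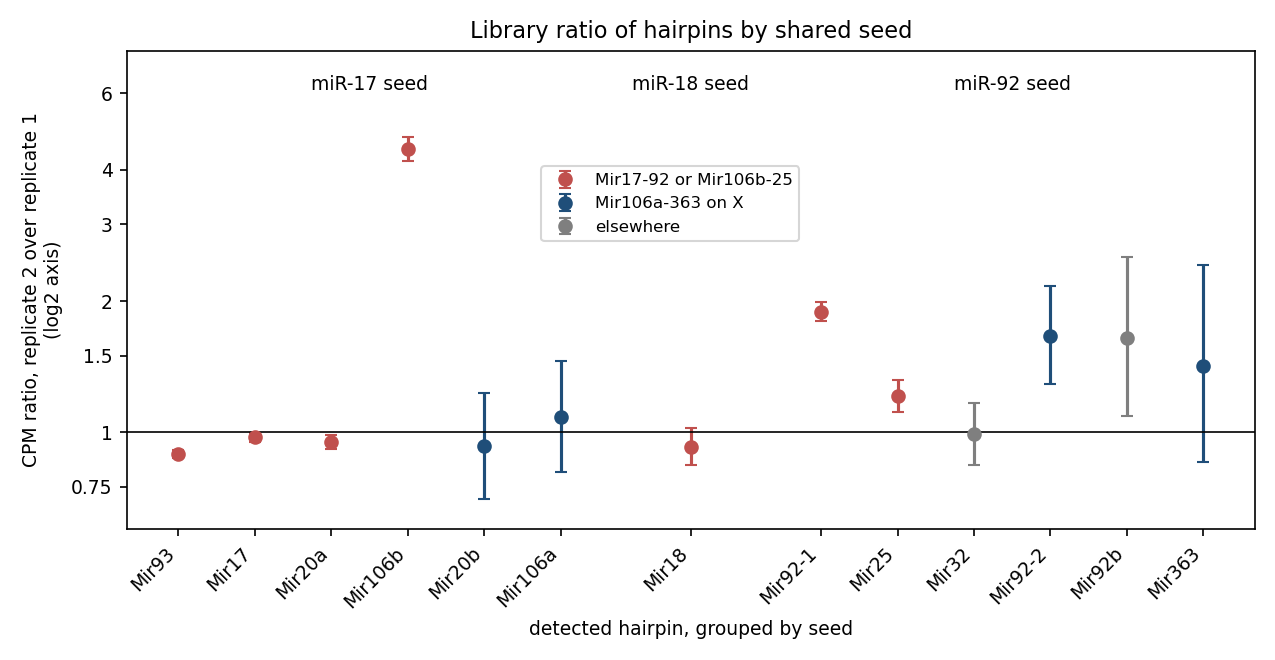
CPM ratio, replicate 2 over replicate 1 (log2 axis), of each detected hairpin that carries a seed of the members. Hairpins are grouped by seed, bars are exact 95% intervals, and the total is all sense counts, Mir122 included. With the miR-17 seed, 5 of 6 hairpins lie between 0.892 and 1.09 and Mir106b lies at 4.46; with the miR-92 seed, Mir92-1 lies at 1.89 and Mir32 at 0.991.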

How the data were processed

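Small RNA was sequenced from adrenal gland in 2 libraries of 1 group; per the labels, the size range was under 30. The deposited tables hold raw counts per annotated microRNA gene, made by the authors on mm10 with GENCODE M21, per the text files beside them. The sources used here do not name the aligner, counter or trimming. Each table has 3 count columns, read from their values as either-strand, sense and antisense, and 4 summary lines, kept out of totals. Summary lines held 55.8% of input reads in replicate 2 and 58.6% in replicate 1 in the sense column. Sense counts were used.

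CPM, exact Poisson and Clopper-Pearson intervals, cluster shares and the exact binomial test (adjusted over detected hairpins at 0.05) were computed with Python 3.11.15, numpy 2.4.6, pandas 2.3.3 and scipy 1.17.1. For log2 ratios 1 CPM was added to each level. The test was also run on simulated Poisson counts with known totals and no variation between libraries beyond counting. That run does not show how the calls hold in these libraries. All 9 members, the X paralog, hairpins sharing a seed, the nearest hairpin to each member and marker lists were named by rule. Members and lists were chosen with earlier results of these data known. Shared runs were searched in M21 transcript sequences. Alternatives were other totals, edgeR 4.0.16 TMM and DESeq2 1.42.0 factors, the either-strand column, other minimums and pseudocounts, and each library left out.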

Additional observations from a re-analysis of the deposited data

How the results depend on the processing

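Levels depended on the total, which ratios within a cluster cannot do because the total cancels. The Mir17-92 share of 0.563% became 0.634% with Mir122 out of the total, 0.241% of all input reads and 0.669% in the either-strand column, and ran from 0.544% to 0.581% with either library left out. The Mir106b-25 share of 0.506% became 0.573%, 0.217% and 0.602% in the same settings, and ran from 0.468% to 0.544%. Members called higher in replicate 2 numbered 3, and 7 with Mir122 or the 9 hepatocyte hairpins out of the totals, the second an alternative added after seeing the data, and 4 with all input reads. Members called lower numbered 2, against 0 in both of those settings, 1 with all input reads, TMM or DESeq2 factors, and 3 in the either-strand column or with no minimum count. Mir17, not called with all sense counts, was called higher with Mir122 or the hepatocyte hairpins out and with all input reads, and lower in the either-strand column.

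Log2 ratios that turned direction were those of Mir17, from -0.04 to 0.28 without Mir122, 0.28 without the hepatocyte hairpins, 0.055 with input reads, 0.024 with TMM and 0.0013 with DESeq2 factors. Mir18 turned from -0.11 to 0.21 in both of the first settings, Mir20a from -0.07 to 0.24 and 0.25, and 0.020 with input reads, and Mir93 from -0.17 to 0.15 and 0.16. Mir106b, Mir92-1 and Mir25 were called higher in replicate 2 in all 8 alternative call settings. With no minimum count, 749 hairpins were tested, of which 32.7% were called; Mir19b-1 was called lower (adjusted exact p = 0.0053). The mean level of Mir106b, 909.7 CPM, was 1486 CPM without replicate 1 and 333 CPM without replicate 2, and its cluster share 27.3% and 7.11%. No paired analysis was possible because there is a single group.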
